A study of Mus musculus with 9 samples.

Results

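The genes of glutamate signalling described here are 36 receptor, auxiliary subunit and transporter genes, taken by gene symbol from the 54532 genes of the deposited count table, and each symbol matched 1 row. They are 4 AMPA receptor subunits, 7 AMPA receptor auxiliary subunits, 6 NMDA receptor subunits, 5 kainate receptor subunits, 2 kainate receptor auxiliary subunits, 1 delta receptor, 6 metabotropic receptors, 2 vesicular transporters and 3 plasma membrane transporters. Their mRNA was measured by RNA-seq in the hippocampus of 9 N4 Ube3a m-/p+ mice, of which 5 had received Ant-134, an antisense oligonucleotide against miR-134, and 4 had received Scr, a scrambled control oligonucleotide. All 9 mice carried the maternal Ube3a deletion of the Angelman syndrome model, bred onto a 129 background, and all had been through audiogenic seizure induction. The oligonucleotide was given at 0.5 nmol, and tissue was taken after repeated audiogenic seizure tests. In 1 protocol for juvenile mice the injection was on postnatal day 21, the tests were on postnatal days 22, 24 and 26 and brains were taken on postnatal day 27. Other mice injected as juveniles were tested over a longer period, and older mice were also tested. The sources used here do not say by which schedule the sequenced mice were treated. Each library was taken as 1 mouse, so p-values measure the spread between these samples, and no wild-type or untreated group is compared here. Mature miR-134 is not captured by poly-A libraries, so its inhibition was not checked in these data. Between 28583298 and 41978113 reads per library were counted on genes, and all 36 genes passed the filter on low counts, with between 156 and 104797 reads per gene and library.

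Glutamate is the main excitatory transmitter of the hippocampus. AMPA receptors carry most of the fast current, NMDA receptors admit calcium and gate plasticity, kainate receptors modulate release and excitability, and metabotropic receptors signal through G proteins. Vesicular transporters load glutamate into synaptic vesicles, and the plasma membrane transporters, mostly on astrocytes, clear it from the extracellular space. miR-134 is a brain-enriched microRNA that pairs with mRNAs through its seed, bases 2 to 8 of the mature strand. The comparison asks whether the mRNAs of this system differed between Ant-134-treated and Scr-treated mice.

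The sequences below are the mature miR-134 strand that Ant-134 is directed against and 4 of its seed matches in these mRNAs, shown because Ant-134 is directed against the former and the latter are where its seed could pair by letters alone. The microRNA sequence is from RefSeq (GRCm38.p6, chr12:109734145-109734166, plus strand) with the seed in capitals. The site windows are in GRCm38 with the GENCODE M21 annotation, all lie in a 3' UTR, and the matching bases are in capitals. The 2 matches of Grin2a are at chr16:9572642-9572649 and chr16:9570839-9570846 on the minus strand, that of Grik3 is at chr4:125709627-125709633 on the plus strand and that of Grid1 is at chr14:35580886-35580892 on the plus strand.
mmu-miR-134-5p: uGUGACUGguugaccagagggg
Grin2a first 8-base match: gtaagagtCAGTCACAgaactgac
Grin2a second 8-base match: tgtggacaCAGTCACAcacataca
Grik3 7-base match: ggggacacCAGTCACccacaatc
Grid1 7-base match: tgacaacaCAGTCACcacacaca

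The letters searched were CAGTCAC and AGTCACA, on the mRNA strand of the longest annotated 3' UTR of each gene, and CAGTCACA, which contains both, was counted once as an 8-base match. A match was present in 7 of the 36 genes, or 19.4%, and in 2973 of 15278 genes tested with an annotated 3' UTR, or 19.5%. The 7 genes were Grin2a with 4 matches, Grik3 with 3, Grid1 with 2, and Shisa6, Grik2, Neto2 and Grm5 with 1 each. Only Grin2a held 8-base matches, which is 2.78% of the 36 genes against 4.44% of all genes tested with an annotated 3' UTR. The 3' UTRs were long, with a median of 2158 bases against 1164 in all genes tested, and those with a match had a median of 5747 bases. At like length the 36 genes held fewer matches, with 1 of 13 genes against 22.9% of all genes at 1000 to 3000 bases, 3 of 7 against 44.2% at 3000 to 6000 bases, and 3 of 6 against 67.9% at 6000 to 30000 bases, and these counts are too small to be read as a difference. A match describes letters in the annotated sequence and was not measured as binding.

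The 36 genes spanned a wide range of abundance (plot of levels by mouse). On the FPKM scale, which divides counts by gene length and library total and so allows genes to be compared, the lowest mean over the 9 mice was 0.619 for Grm8, a presynaptic group III metabotropic receptor. The highest was 512 for Cnih2, the cornichon auxiliary subunit of AMPA receptors, followed by 317 for Slc17a7 (VGLUT1), 201 for Slc1a2 (GLT-1) and 137 for Gria1 (GluA1). Of the summed FPKM of the 36 genes, AMPA receptor auxiliary subunits held 36.7%, vesicular transporters 17.9%, plasma membrane transporters 15.9% and AMPA receptor subunits 12.2%. NMDA subunits held 5.88%, kainate subunits 5.46%, metabotropic receptors 3.01%, kainate auxiliary subunits 2.41% and the delta receptor 0.587%. FPKM uses 1 annotated length per gene, and how far each annotated length is transcribed in this tissue was not measured.

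**Figure D1:**
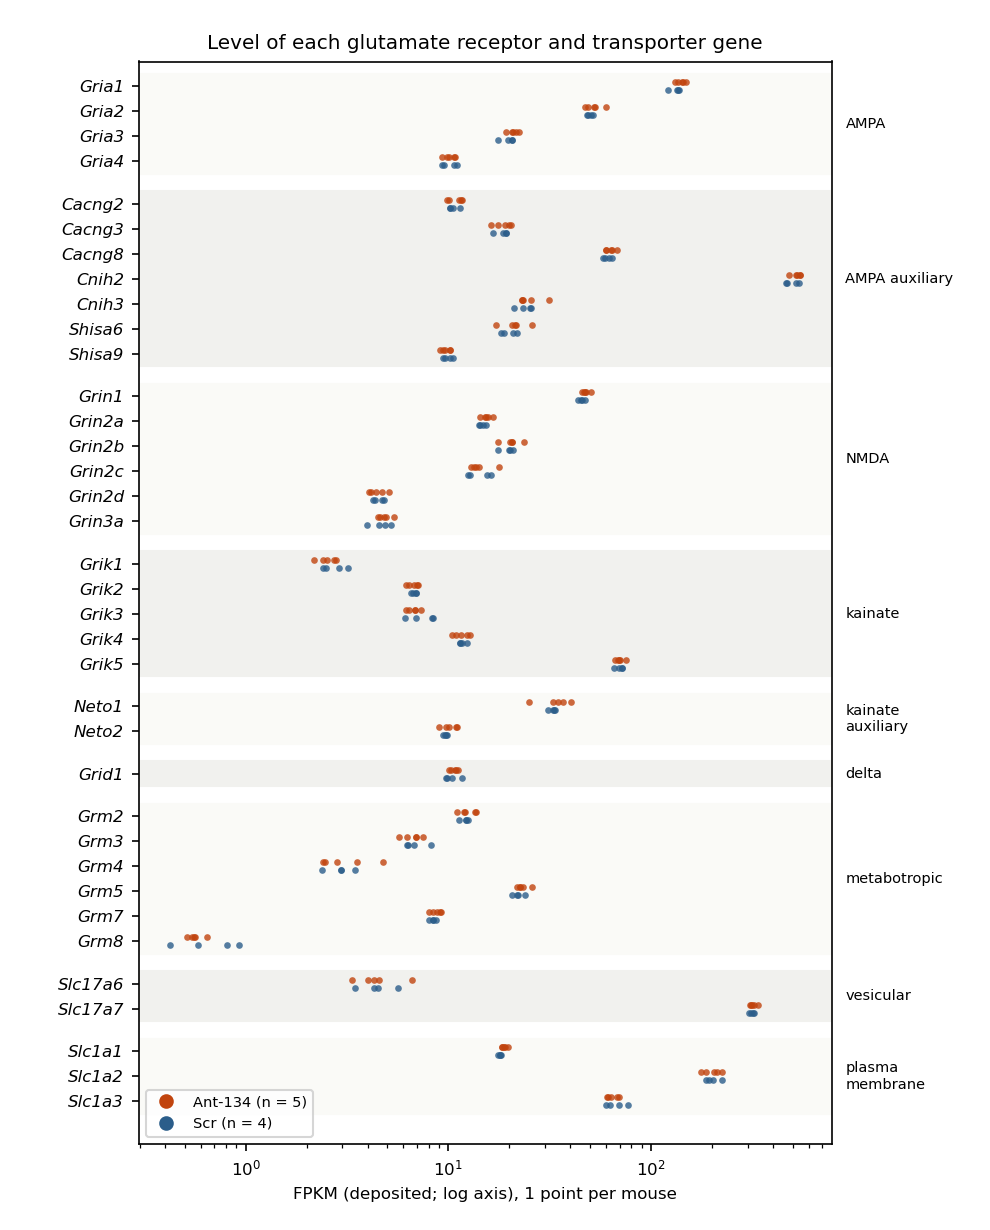
FPKM of each gene on a log axis, with 1 point per mouse, Ant-134 above Scr within a gene, and genes grouped by role. Levels ran from 0.619 (Grm8) to 512 (Cnih2), and for each gene but Slc1a1 the points of the groups overlap.

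None of the 36 genes passed the test between Ant-134-treated and Scr-treated mice. In edgeR's quasi-likelihood test 0 of 36 had an unadjusted p below 0.05, against 827 of 19782 genes tested, or 4.18%. The 36 genes held 0 higher and 0 lower genes at that threshold, against 1.49% higher and 2.69% lower of all genes tested. The smallest Benjamini-Hochberg adjusted p among the 36 was 0.998, and 0.00% of all genes passed adjustment in this fit. In other settings some genes passed, none of them among the 36. These were 16 of 37435 with DESeq2 without a filter, 14 of 37454 in edgeR without a filter and 2 of 19782 with the replicate number as a block. With DESeq2, and with limma on log2(FPKM + 1), 1 of the 36, or 2.78%, was past the unadjusted threshold, Slc1a1 in each case, against 2.74% of all genes with DESeq2 and 4.68% with limma. The log2 fold changes, Ant-134 minus Scr, were above 0 for 25 genes and below 0 for 11, with a median of 0.04 against 0.00 over all genes tested. When each mouse was left out in turn, the number above 0 was between 20, without Ant-134 3, and 29, without Ant-134 1, and 17 of the 36 genes had the other sign in at least 1 of these fits. The log2 fold changes ran from -0.28 for Grm8 to 0.12 for Grm4, which was -0.06 without Ant-134 3, and for 32 genes the size was under 0.1. The median was 0.01 without Ant-134 3 and 0.02 without Ant-134 4, the 2 mice in which 11 genes each were at their highest.

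The precision of these differences was high for most genes (plot of differences with intervals). For 29 of the 36, or 80.6%, the 95% interval of the log2 fold change lay within 0.32 of 0, which was so for 52.6% of all genes tested. The other 7 were Shisa6, Grik1, Grik3, Neto1, Grm4, Grm8 and Slc17a6. The coefficient of variation between mice of a group had a median of 7.27%, from 2.38% for Slc1a1 to 25.7% for Grm4, against 6.55% for the 11834 genes in the same range of CPM. In counts simulated from these libraries, a change of 0.25 on the log2 scale gave an unadjusted p below 0.05 in edgeR for 67.0% of changed genes, and a change of 0.13 for 32.5%. The changed genes were drawn at random from all genes above a minimum level, not from the 36. The coefficient of variation over all genes tested had a median of 10.3%. The smallest change simulated was 0.13. How well most differences seen here could be detected with 5 and 4 mice was therefore not measured.

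**Figure D2:**
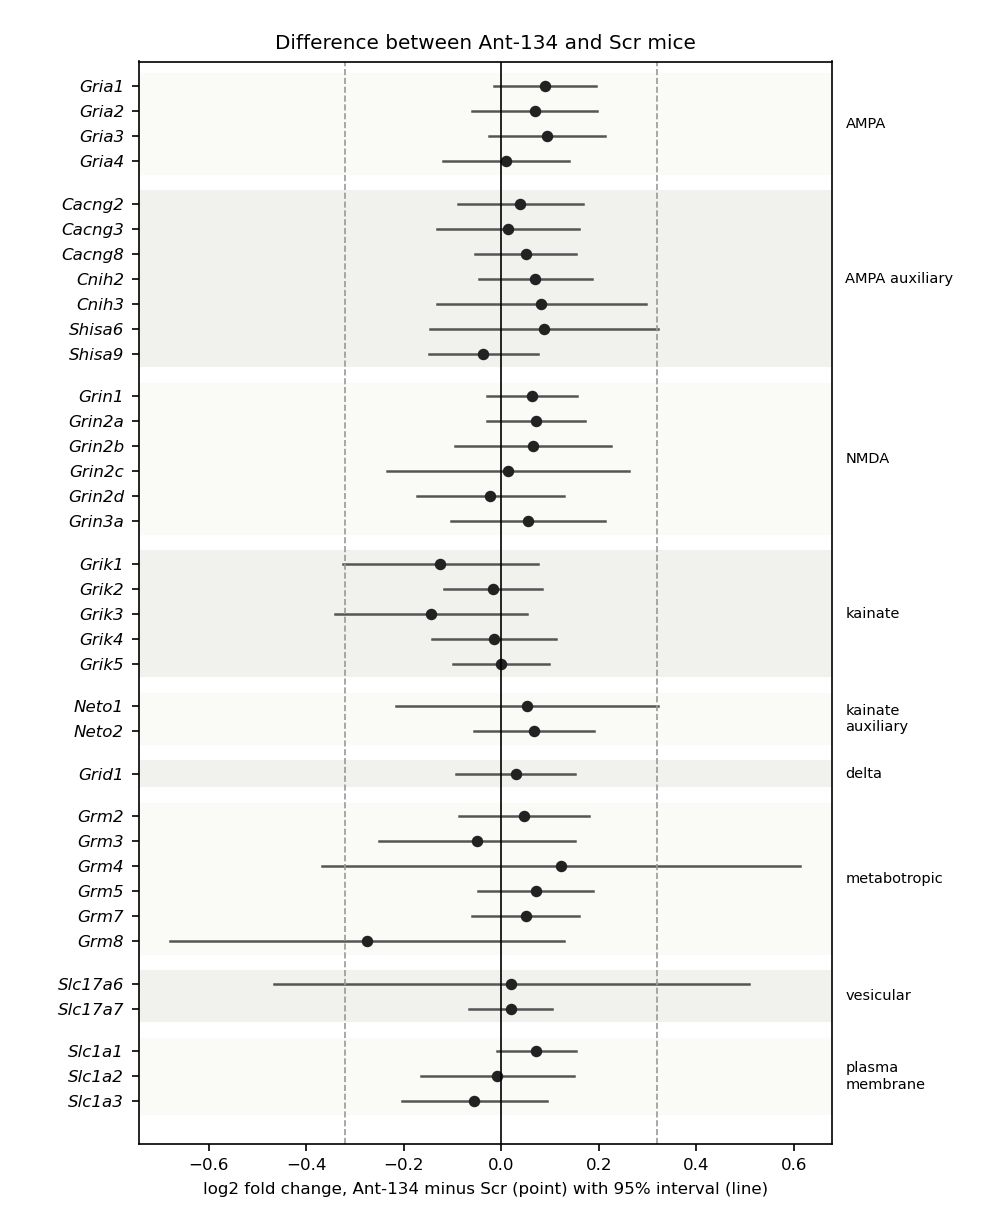
Log2 fold change of each gene between Ant-134 and Scr mice with its 95% interval, and dashed lines at -0.32 and 0.32. All 36 intervals include 0, and the widest are those of Grm4, Slc17a6 and Grm8.

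The libraries contained the hippocampal cell types that express these genes. All genes chosen as markers of hippocampal neurons (6), dentate granule cells (7), CA1 pyramidal cells (6) and CA3 pyramidal cells (5) passed the filter. Of the 6 neuron markers, 1, Snap25, was higher in edgeR at an unadjusted p below 0.05, and none was lower. Their median log2 fold change was 0.08. Their summed level was 5165 to 6403 CPM (reads of a gene relative to the TMM-normalized library size) in Ant-134 and 5242 to 6175 in Scr. Snap25 and Bhlhe22 are in the study's own list of genes picked on these samples, so the direction of these markers is not independent evidence. Medians were 0.11 for dentate granule cells, with 1 gene higher at that threshold, 0.11 for CA1 and -0.10 for CA3 pyramidal cells. The 7 activity-regulated genes were all above 0, with a median of 0.17. Of the 10 astrocyte markers, 0 had an unadjusted p below 0.05 in edgeR, and their summed level was 1942 to 2293 CPM against 1817 to 2378. All 8 microglia markers were lower in Ant-134-treated mice, 5 of them at an unadjusted p below 0.05 in edgeR, at a summed 377 to 409.7 CPM against 427 to 486. None of these markers was at 0 in all libraries. In whole tissue, fewer cells of a type and less RNA per cell cannot be told apart, and the part of cell make-up in the values of the 36 genes was not tested.

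The pore-forming AMPA receptor subunits were the group with the largest median difference, at 0.08 on the log2 scale, and all 4 were above 0, also with DESeq2's size factors, but none passed the test. A median of this size was not particular to them. Marker medians were 0.08 for hippocampal neurons, 0.11 for CA1 pyramidal and dentate granule cells and -0.10 for CA3 pyramidal cells. Gria4, at 0.01, changed sign in 4 of the 9 fits that leave out 1 mouse, with a range from -0.03 to 0.05. Gria1, the subunit GluA1 that is inserted into synapses during potentiation, was at 879, 805, 867, 908 and 824 CPM in Ant-134 mice 1 to 5 and at 834, 821, 741 and 826 CPM in Scr mice 1 to 4. Scr 3 was the lowest of the 9, and the other 3 Scr mice lay within the Ant-134 range. The log2 fold change of Gria1 was 0.09 with an SE of 0.05 and an unadjusted p of 0.0894 in edgeR, and it was 0.05 without Scr 3.

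Gria3 (GluA3) is on the X chromosome and was the member of this family with the largest fold change. It was at 191, 208, 206, 224 and 213 CPM in Ant-134 mice and at 196, 176, 205 and 205 CPM in Scr mice. Ant-134 1 lay below 3 of the Scr mice, while Ant-134 2 to 5 lay above all 4. The log2 fold change was 0.09 with an SE of 0.06. It was 0.12 without Ant-134 1 and 0.04 without Scr 2, with unadjusted p of 0.0457 and 0.409 in edgeR. Gria2, the subunit whose RNA-edited form makes receptors impermeable to calcium, had a mean of 822 ± 76.8 CPM (SD) in Ant-134 and 784 ± 24.0 CPM in Scr, with a log2 fold change of 0.07 that was 0.01 without Ant-134 4. Gria4, an interneuron-enriched subunit, was at 64.8 ± 3.94 CPM against 64.4 ± 5.34 CPM, with a log2 fold change of 0.01. By FPKM, Gria1 made up 62.6% ± 1.60 (SD, n = 9) of the 4 subunits, Gria2 23.5%, Gria3 9.33% and Gria4 4.66%. The share of Gria2 was 23.3% ± 1.29 in Ant-134 and 23.6% ± 0.529 in Scr, and the groups overlapped.

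The auxiliary subunits of AMPA receptors bind the pore and set its trafficking and kinetics, and 6 of the 7 lay above 0. Cnih2 was at 651, 599.6, 681, 661 and 674 CPM in Ant-134 mice and at 645, 678, 580.5 and 587 CPM in Scr mice. Scr 2 was among the highest of the 9 and Ant-134 2 among the lowest, and the groups overlapped. Its log2 fold change was 0.07 with an SE of 0.05. The TARPs Cacng2 (stargazin), Cacng3 and Cacng8, the last of these the most abundant of the 3 in hippocampus at 62.1 FPKM, had log2 fold changes of 0.04, 0.01 and 0.05, and that of Cacng3 changed sign in 3 of the 9 fits that leave out 1 mouse. Shisa9 (CKAMP44), which speeds desensitization of AMPA receptors in the dentate gyrus, was at -0.04.

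Cnih3 and Shisa6 varied more between Ant-134 mice than the other auxiliary subunits. Cnih3 was at 87.2 CPM in Ant-134 5 and between 64.2 and 70.8 CPM in the other Ant-134 mice, against 58.4 to 71.6 CPM in Scr, and its log2 fold change of 0.08 became -0.01 without that mouse. Shisa6, another AMPA receptor auxiliary protein, was at 194 CPM in Ant-134 4, at 128 CPM in Ant-134 5 and at 154 to 163 CPM in the other Ant-134 mice, against 138 to 165 CPM in Scr. Its log2 fold change was 0.09 with an SE of 0.10, 0.01 without Ant-134 4 and 0.16 without Ant-134 5. Cnih3 made up 4.62% ± 0.621 of the 2 cornichons in Ant-134 and 4.61% ± 0.674 in Scr.

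Of the NMDA receptor subunits 5 of 6 lay above 0, with a median of 0.06, and none passed the test. Grin2c and Grin2d each changed sign in 3 of the 9 fits that leave out 1 mouse, and Grin3a in 1. Grin1, the obligatory subunit GluN1, was at 445, 461, 495, 471 and 458 CPM in Ant-134 mice and at 463, 429, 445 and 448 CPM in Scr mice. Ant-134 3 was the highest and Scr 2 the lowest of the 9, the groups overlapped, and the log2 fold change was 0.06 with an SE of 0.04. Grin2a, the GluN2A subunit that gains weight as synapses mature and the gene with the most miR-134 matches shown above, was at 282, 274, 277, 301 and 259 CPM in Ant-134 mice and at 276, 260.2, 256 and 269 CPM in Scr mice. Ant-134 5 lay below 3 of the Scr mice, and the other 4 Ant-134 mice were within or above the Scr range. The log2 fold change of Grin2a was 0.07 with an SE of 0.05 and was between 0.04 and 0.10 when each mouse was left out.

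Grin2b, the GluN2B subunit that prevails early in development, was at 515 ± 55.1 CPM in Ant-134 and 493 ± 33.8 CPM in Scr, and its extremes were both in the Ant-134 group, 596 CPM in Ant-134 4 and 441 CPM in Ant-134 5. Its log2 fold change of 0.06 ran from 0.00 to 0.11 over the fits that leave out 1 mouse. Grin2a made up 42.9% ± 1.39 of Grin2a and Grin2b by FPKM in Ant-134 and 42.8% ± 1.48 in Scr. Grin2c, Grin2d and Grin3a, subunits with slower or weaker currents, had log2 fold changes of 0.01, -0.02 and 0.05. Grin2c was at 90.9 CPM in Ant-134 3 and between 65.9 and 71.9 CPM in the other Ant-134 mice, against 63.6 to 82.5 CPM in Scr. By FPKM, Grin1 made up 44.2% of the 6 subunits, Grin2b 19.1%, Grin2a 14.3%, Grin2c 13.6%, Grin3a 4.52% and Grin2d 4.29%.

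The kainate receptor subunits were the ionotropic group with a median below 0, at -0.02. Grik1 to Grik4 were below 0 in edgeR with TMM and with DESeq2's size factors, while Grik5 was at 0.00 and changed sign with the size factors. Grik4 was at 0.02 with the replicate number as a block and changed sign in 3 of the 9 fits that leave out 1 mouse, and Grik2 changed sign in 1, without Ant-134 1, at 0.01. Grik3 (GluK3) was at 55.8, 66.1, 62.1, 62.6 and 57.7 CPM in Ant-134 mice and at 62.6, 55.6, 76.2 and 75.0 CPM in Scr mice. Scr 3 and Scr 4 were above all other mice, Scr 2 was the lowest of the 9, and the groups overlapped. The log2 fold change of Grik3 was -0.15 with an SE of 0.09. It was -0.23 without Scr 2 and -0.08 without Scr 3, with unadjusted p of 0.00629 and 0.378 in edgeR.

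Grik1 (GluK1), found mostly in interneurons of the hippocampus, was at 18.4, 17.0, 14.8, 16.4 and 18.8 CPM in Ant-134 mice and at 16.2, 17.1, 21.7 and 19.7 CPM in Scr mice. Scr 3 and Scr 4 were again the highest, Scr 1 and Scr 2 lay within the Ant-134 range, and the log2 fold change was -0.13 with an SE of 0.09 and -0.04 without Scr 3. Grik2 (GluK2), the main low-affinity subunit, was at 89.6 ± 5.14 CPM against 90.7 ± 2.45 CPM, and Grik4, a high-affinity subunit of CA3, at 69.9 ± 6.10 CPM against 70.7 ± 2.74 CPM. Grik5 (GluK5), the most abundant of the 5 at 71.4% of their FPKM, was at 358, 364, 366, 348 and 390.2 CPM in Ant-134 mice and at 376, 378, 365 and 342 CPM in Scr mice. The lowest value of Grik5 was that of Scr 4, the highest that of Ant-134 5, and the means were both 365 CPM. The high-affinity subunits Grik4 and Grik5 together made up 83.7% ± 0.718 of the family in Ant-134 and 82.8% ± 1.56 in Scr, with overlap between the groups.

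Neto1 and Neto2 are auxiliary subunits of kainate receptors, and Neto1 is enriched at CA3 mossy fibre synapses. Neto1 was at 124, 131, 117, 145 and 88.9 CPM in Ant-134 mice and at 117, 111, 118 and 120.4 CPM in Scr mice. The 4 Scr mice were close together, while Ant-134 5 was below and Ant-134 4 above every other mouse. The log2 fold change of Neto1 was 0.05 with an SE of 0.12, and it was -0.02 without Ant-134 4 and 0.15 without Ant-134 5, the latter with an unadjusted p of 0.0269 in edgeR. Neto2 was at 62.8 ± 5.23 CPM against 59.9 ± 1.15 CPM, with a log2 fold change of 0.07. It was 0.04 without Ant-134 3 and 0.11 without Ant-134 1, with unadjusted p of 0.538 and 0.0491 in edgeR. Neto1 made up 76.7% ± 3.23 of both by FPKM in Ant-134 and 77.2% ± 0.280 in Scr, so the mean shares differed little and the spread was wider in Ant-134.

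Grid1 encodes the delta receptor GluD1, which acts as a synaptic organizer. It was at 60.4, 61.9, 64.7, 67.7 and 65.3 CPM in Ant-134 mice and at 58.9, 58.7, 70.2 and 63.1 CPM in Scr mice. The highest and the lowest mice were both Scr, and the log2 fold change was 0.03 with an SE of 0.06.

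Of the 6 metabotropic receptors, 4 lay above 0 and 2 below. Grm5, the postsynaptic group I receptor mGluR5 and the most abundant of them at 22.7 FPKM, was at 225, 243, 233, 268 and 233 CPM in Ant-134 mice and at 228, 215, 226 and 247 CPM in Scr mice. Ant-134 4 was the highest and Scr 2 the lowest of the 9, the groups overlapped, and the log2 fold change was 0.07 with an SE of 0.06. Grm8 was at 5.12, 6.47, 5.55, 5.47 and 5.63 CPM in Ant-134 mice and at 5.80, 4.26, 8.12 and 9.26 CPM in Scr mice. The Ant-134 mice were close together, while the Scr group held both the highest values, in Scr 3 and Scr 4, and the lowest, in Scr 2.

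The log2 fold change of Grm8 was -0.28 with an SE of 0.19, and -0.10 in limma on log2(FPKM + 1), a scale that understates changes of low genes. Without Scr 2 it was -0.45, with an unadjusted p of 0.00857 in edgeR, and without Scr 4 it was -0.10, with an unadjusted p of 0.597 in edgeR. Scr 3 and Scr 4 were thus the highest mice for Grm8, Grik1 and Grik3. The same 2 mice had the highest summed level of 6 markers of Cajal-Retzius cells, early-born neurons along the hippocampal fissure, at 113 and 116 CPM against 80.1 to 97.1 CPM in the other 7. Reln and Cacna2d2 made up most of that sum and were highest in both mice, with Reln at 73.1 and 74.2 CPM against 48.6 to 62.3 CPM in the others. Trp73 and Ebf3 were not highest in both, with Trp73 at 4.86 CPM in Scr 4 against 5.27 CPM in Ant-134 1 and Ebf3 at 1.11 CPM in Scr 3 against 1.22 CPM in Ant-134 2, and Lhx1 and Lhx5 were below 0.5 CPM in all mice. The median log2 level of the 8 interneuron markers, relative to the Scr mean, was 0.01 in Scr 3 and 0.15 in Scr 4, against 0.18 in Ant-134 5. The part of Cajal-Retzius cells and of interneurons in the 3 genes was not tested. Grm2 and Grm3, the group II receptors mGluR2 and mGluR3 that inhibit release and adenylyl cyclase, had log2 fold changes of 0.05 and -0.05, and Grm7, a presynaptic group III receptor, was at 0.05. Grm4, also of group III, had a mean of 19.3 ± 5.92 CPM in Ant-134 and 17.7 ± 2.60 CPM in Scr, with a log2 fold change of 0.12 and the widest interval of the 36, from -0.37 to 0.61, and without Ant-134 3 its log2 fold change was -0.06.

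Neither vesicular transporter passed the test. Slc17a7, which encodes VGLUT1 of hippocampal and cortical glutamatergic neurons, was at 1761, 1703, 1837, 1727 and 1664 CPM in Ant-134 mice and at 1748, 1713, 1661 and 1740.2 CPM in Scr mice. Ant-134 3 was the highest and Scr 3 the lowest of the 9, the groups overlapped, and the log2 fold change was 0.02 with an SE of 0.04. Slc17a6, which encodes VGLUT2 of thalamic and other subcortical neurons, was at 21.8, 23.3, 36.2, 18.2 and 24.6 CPM in Ant-134 mice and at 23.4, 19.1, 30.9 and 24.5 CPM in Scr mice. The highest mouse of each group was number 3, and the log2 fold change was 0.02 with an SE of 0.21. It ran from -0.15 to 0.15 over the fits that leave out 1 mouse and changed sign in 3 of the 9.

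Slc17a6 and Grm4 varied between mice together with genes of the thalamus, which adjoins the hippocampus (plot of Slc17a6 and Grm4 against thalamus genes). The median log2 level of the 9 thalamus genes, relative to the Scr mean, was 0.48 in Ant-134 3 and 0.20 in Scr 3, the 2 mice highest in Slc17a6, and between -0.20 and 0.01 in the others. Ant-134 3 was also the highest mouse for Grm4, at 28.7 CPM against 14.5 to 21.4 CPM in the other Ant-134 mice. The summed level of the list was 100.2 to 167 CPM in Ant-134 and 110.2 to 134 CPM in Scr. Ant-134 3 was the highest mouse for 6 of the 9 genes and Scr 3 for 2, Zic1 and Gbx2, the latter below 0.5 CPM in all mice. Shox2 reached 3.24 CPM in Ant-134 3 and 1.29 CPM in Scr 3 and was below 0.5 CPM in the other mice. Other members did not follow this order. Slitrk6 was highest in Ant-134 1, at 3.38 CPM against 2.67 CPM in Ant-134 3. Lef1 was at 3.64 CPM in Scr 3 against 3.83 CPM in Scr 2, and Rgs16 at 8.21 CPM in Scr 3 against 10.5 CPM in Ant-134 2. Prkcd was at 41.3 CPM in Scr 3 against 43.4 CPM in Ant-134 4, and Gbx2 was at only 0.036 CPM in Ant-134 3. In exact permutation tests over all pairings of the 9 mice, two-sided, Pearson's r of Slc17a6 with the list was 0.90 (p = 0.00175, adjusted over 4 relations 0.00349) and Spearman's rho was 0.67 (p = 0.0589, adjusted 0.0589). Without Ant-134 3 and Scr 3 the r was 0.52, so the relation of Slc17a6 rests in part on those mice. For Grm4 the r was 0.93 (exact permutation p = 0.000752, adjusted 0.00301) and rho 0.83 (p = 0.00827, adjusted 0.0331), and without the same mice the r was 0.78. Only 4 pairs of a gene and a list were tested out of all those possible, and the adjustment covers these 4 alone. The p-values therefore do not account for how the pairs were chosen.

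**Figure D3:**
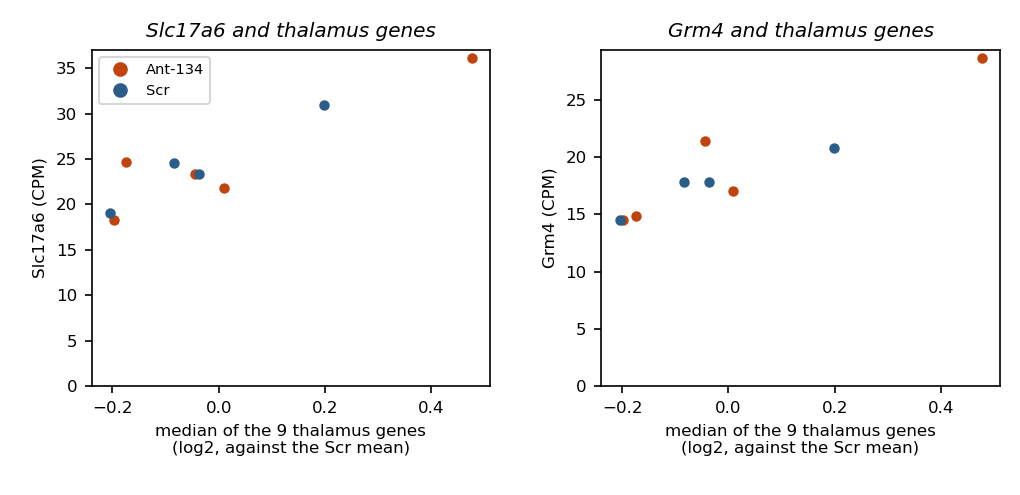
CPM of Slc17a6 (left) and Grm4 (right) in each mouse against the median log2 level of 9 thalamus genes relative to the Scr mean, with Ant-134 and Scr in different colours. Ant-134 3 is at the upper right of both panels, at 36.2 CPM of Slc17a6 and 28.7 CPM of Grm4.

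Of the 3 plasma membrane transporters 1 lay above 0 and 2 below, and none passed the test. Slc1a1 encodes EAAC1 (EAAT3), the neuronal glutamate and cysteine transporter. It was at 116, 119, 123, 115 and 115 CPM in Ant-134 mice and at 112, 114, 109 and 112 CPM in Scr mice. All 5 Ant-134 mice were above all 4 Scr mice, with the lowest Ant-134 and the highest Scr value close together. That is 1 gene of 36 whose groups do not overlap, or 2.78%, near the 1.54% of all genes tested, of which 0.647% had Ant-134 as the higher group. The mean was 118 ± 3.19 CPM against 112 ± 1.99 CPM, and the log2 fold change was 0.07 with an SE of 0.04, a 95% interval of -0.01 to 0.15 and an unadjusted p of 0.0785 in edgeR, so it did not pass the test.

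The unadjusted p of Slc1a1 was 0.0499 in DESeq2 and between 0.0199 and 0.159 over all alternative settings with all mice, the highest being edgeR without a filter. No adjusted p was below 0.05. Slc1a1 is in the study's own list of genes picked on these samples, so its direction here is not independent evidence. Leaving out each mouse in turn gave a log2 fold change between 0.06 and 0.08 and an unadjusted p between 0.0560 and 0.179 in edgeR.

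The groups overlapped for both glial transporters. Slc1a2 was at 2331, 2714, 2991, 2807 and 2463 CPM in Ant-134 mice and at 2961, 2478, 2691 and 2579.7 CPM in Scr mice. The highest and the lowest mice were both in the Ant-134 group, and the log2 fold change was -0.01 with an SE of 0.07. Slc1a3 (GLAST) was at 558 ± 34.4 CPM against 580.0 ± 65.4 CPM, with a log2 fold change of -0.06 that was 0.01 without Scr 1. Slc1a2 made up 70.5% ± 1.34 of the 3 transporters by FPKM in Ant-134 and 70.3% ± 1.81 in Scr (plot of shares by mouse).

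Both glial genes followed the astrocyte markers across the 9 mice. With the median level of the 10 astrocyte markers, Pearson's r was 0.77 for Slc1a2 (exact permutation p = 0.0136, adjusted 0.0136) and 0.83 for Slc1a3 (exact permutation p = 0.00485, adjusted 0.00646). Spearman's rho was 0.77 (exact permutation p = 0.0214, adjusted 0.0428) and 0.72 (p = 0.0369, adjusted 0.0492). Without Ant-134 1 and Scr 1, the mice farthest from the median, r was 0.47 and 0.70, so the relation of Slc1a2 rests in part on those mice. The points share their libraries and scaling, and none of the 10 markers is among the 36 genes. Here too the p-values do not account for the choice of the pairs tested.

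**Figure D4:**
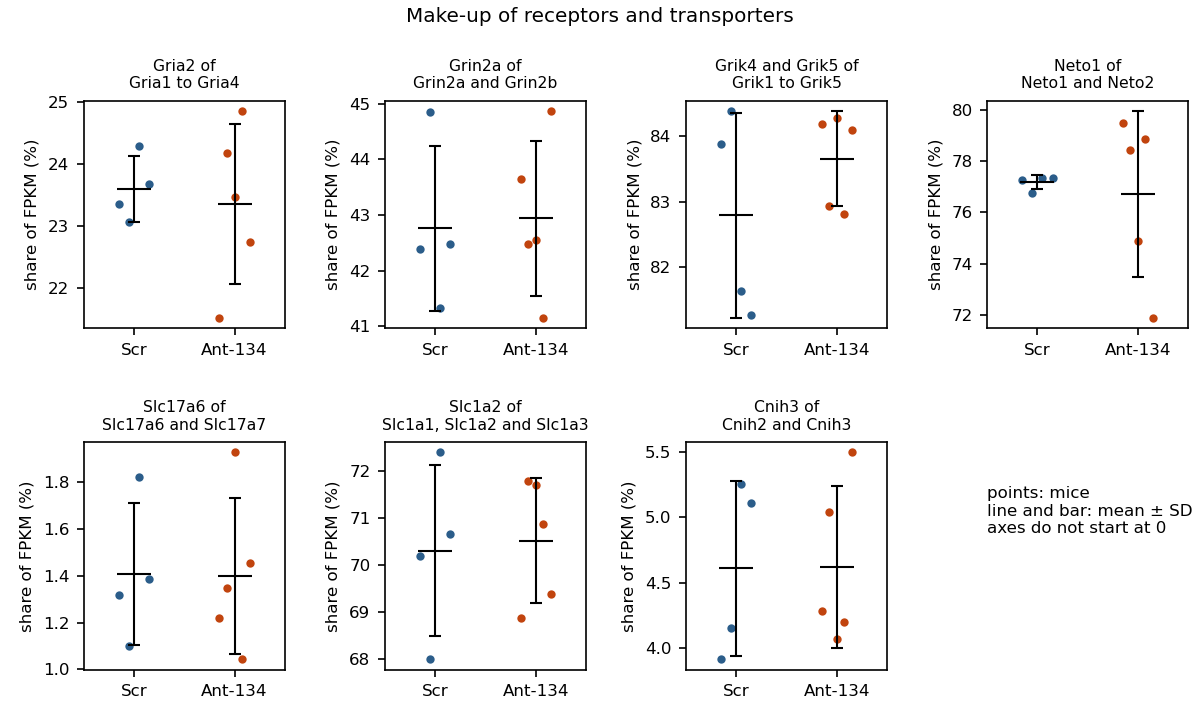
Share of 1 or 2 genes in the summed FPKM of their family in each mouse (points), with mean and SD (lines), for Scr (n = 4) and Ant-134 (n = 5). Axes do not start at 0, and the groups overlap in all 7 panels.

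Individual mice differed more than the groups did (heat map of genes by mouse). Ant-134 3 and Ant-134 4 were each the highest of the 9 for 11 genes, where an even spread would give 4, and Ant-134 1 was the lowest for 9, Scr 2 for 8 and Scr 3 for 8. The median over the 36 genes relative to the Scr mean was 0.08 in Ant-134 3 and Ant-134 4, -0.04 in Ant-134 1 and -0.05 in Scr 2. The neuron marker median was 0.17 and 0.18 in Ant-134 3 and Ant-134 4 and 0.08 in Ant-134 1. Ant-134 1 was also the highest mouse for 6 choroid plexus genes, at a median of 2.20 and a summed 2571 CPM against 66.9 to 2022 CPM in the others, and for the oligodendrocyte markers, at a median of 0.35. Ant-134 5 was the lowest mouse for 5 genes, Neto1, Shisa6, Grin2b, Grik4 and Grm7, and the highest for 4, Cnih3, Grik5, Grin2d and Grin3a. In that mouse the median of 7 activity-regulated genes was 0.63 and that of 8 oligodendrocyte markers was -0.54 relative to the Scr mean, and their part in the values of these genes was not tested.

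**Figure D5:**
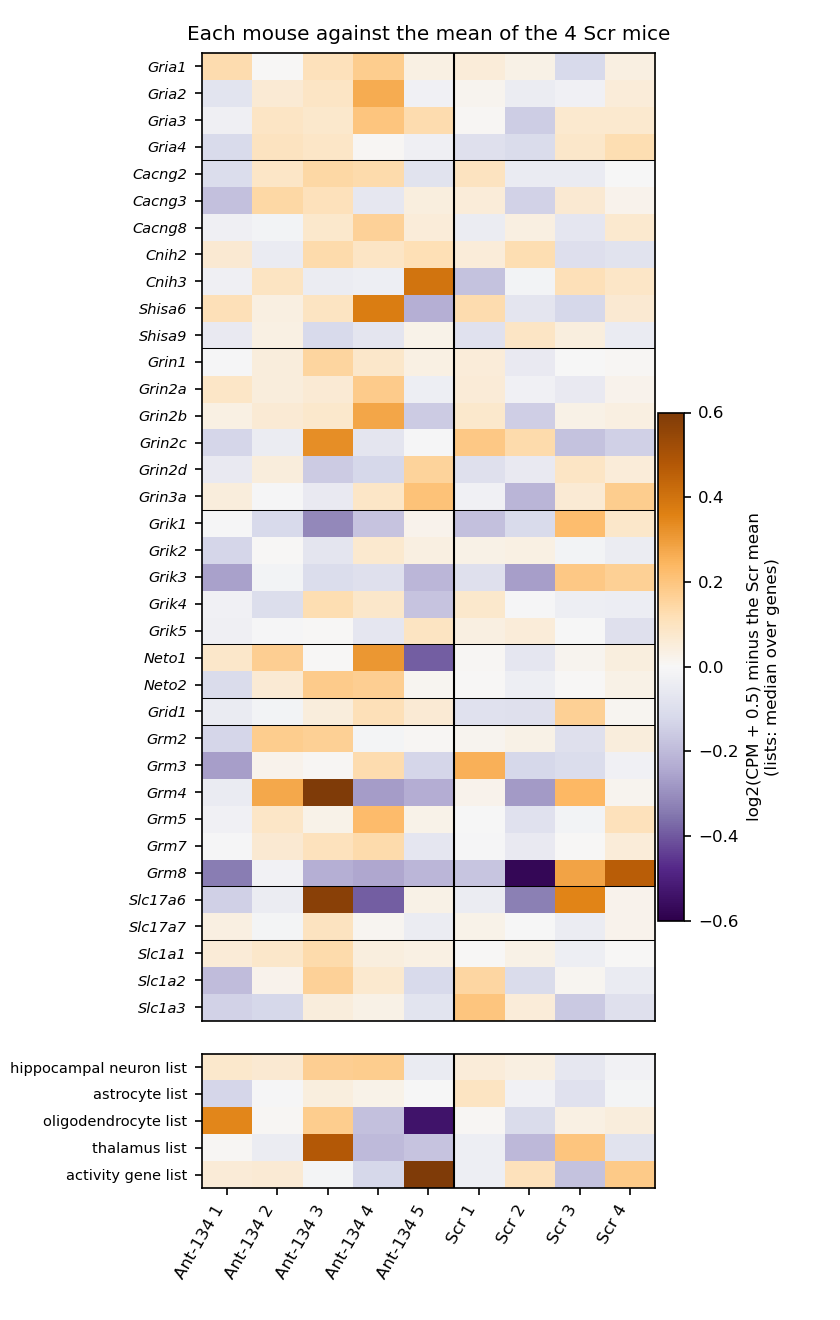
Log2 level of each of the 36 genes (rows) in each mouse (columns) minus the Scr mean, with the medians of 5 marker lists below (values past the ends of the colour scale take its end colours). Grm4 and Slc17a6 are highest in Ant-134 3, as is the thalamus list, and Cnih3 is highest in Ant-134 5.

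The genes with a miR-134 match were compared with those without one. Of the 7 with a match 5 had a log2 fold change above 0, with a median of 0.07 and a range from -0.15 for Grik3 to 0.09 for Shisa6. Of the 29 without a match 20 were above 0, with a median of 0.04 and a range from -0.28 to 0.12. Over all genes tested with an annotated 3' UTR the medians were 0.01 with and 0.01 without a match. Grin2a, with 4 matches, and Grik3, with 3, lay on opposite sides of 0.

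Other genes of glutamate handling were described by a separate list of 36 genes, of which 34 passed the filter, with further receptors and auxiliary proteins and the enzymes and carriers of the glutamate and glutamine cycle. Of the 34, 1 was higher and 1 lower at an unadjusted p below 0.05 in edgeR, a number near the 1.49% higher and 2.69% lower of all genes tested. In the same list 0 passed adjustment, 19 were above 0 and 15 below, and the median log2 fold change was 0.03. Slc38a3 (SNAT3), the glutamine transporter of astrocytes, was at 71.7, 72.3, 72.1, 65.8 and 62.5 CPM in Ant-134 mice and at 77.5, 78.8, 79.6 and 71.8 CPM in Scr mice. Scr 4 lay within the Ant-134 range and the other Scr mice above it, and the log2 fold change was -0.16 with an SE of 0.05, an unadjusted p of 0.00867 and an adjusted p of 0.998 in edgeR. Shisa7 (CKAMP59), an auxiliary protein of AMPA and GABA receptors, was at 308, 282, 299, 331 and 323 CPM in Ant-134 mice and at 294, 293, 276 and 276 CPM in Scr mice. Ant-134 2 lay within the Scr range and the other Ant-134 mice above it, and the log2 fold change was 0.11 with an SE of 0.05, an unadjusted p of 0.0381 and an adjusted p of 0.998 in edgeR.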

How the data were processed

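Per the labels and the submitters' processing notes, the authors prepared poly-A libraries, processed base calls with CASAVA 1.8, mapped reads to mm10 (GRCm38) with HISAT2 2.0.5 and counted them per gene with featureCounts 1.5.0-p3. They deposited unnormalized counts and FPKM values, which divide each count by the gene's length and the library's depth, for 9 samples. Groups were taken from the labels.

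Counts were tested with edgeR 4.0.16 in R 4.3.3 (filterByExpr, minimum count 10, TMM, robust quasi-likelihood test, no covariate) on 19782 genes, with Benjamini-Hochberg adjustment over all of them, and edgeR's test was tested on simulated data. CPM use TMM-normalized library sizes, and 0.5 was added before taking log2. Standard errors came from the F statistic. Each value's precision is limited by 5 and 4 mice, and 3 counts, between 0.0709 and 0.107 CPM, were taken as the floor for counting error only, since PCR duplicates cannot be told apart. Every pair of libraries within a group differed beyond sampling noise (chi-square per gene 8.30 to 21.1).

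Alternatives were DESeq2 1.42.0 without a filter, its size factors in edgeR, no filter, no robust estimation, a replicate block, a covariate of Y-linked levels, limma 3.58.1 on log2(FPKM + 1) or log2(FPKM + 0.1) with or without a minimum mean FPKM of 0.1, and leaving out each mouse. The 36 genes, the lists and the rule for values per mouse were chosen with earlier results of these data known. That rule took the 10 genes with the smallest p, the most abundant gene of each role, Slc1a1 and Slc17a6, and of the other glutamate genes those with an unadjusted p below 0.05. Members given by mean or by single mice fall outside it. No paired fit was the main test, and labels give no batch.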

Additional observations from a re-analysis of the deposited data

Results flagged for a closer look

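Within each group the highest and lowest mouse were checked with Dixon's criterion, which flags about 1 in 20 groups by chance. Of 116 group checks 7 were past the critical value, where 5.8 would be by chance. Among the glutamate genes, Gria1 was at 741 CPM in Scr 3, below the other Scr mice at 821 to 834 CPM. Cnih3 was at 87.2 CPM in Ant-134 5, above the other Ant-134 mice at 64.2 to 70.8 CPM. Grin2c was at 90.9 CPM in Ant-134 3, above the other Ant-134 mice at 65.9 to 71.9 CPM. Among the marker lists, as median log2 level relative to the Scr mean, microglia were at 0.15 in Scr 1, CA1 pyramidal cells at -0.22 in Scr 2, erythrocytes at 2.55 in Ant-134 3 and activity-regulated genes at 0.63 in Ant-134 5, each apart from the other mice of its group. The cause of these deviations was not tested.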

How the results depend on the processing

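Of the 36 genes, 17 had the other sign when some mouse was left out, among them, of those named below, Neto1 at -0.02 without Ant-134 4, and 0 of the 36 genes had an adjusted p below 0.05 in any of the 18 alternative settings. At an unadjusted p below 0.05, the number of the 36 called was 0 in edgeR, 1 in DESeq2 and 1 in each of the 3 limma settings, always Slc1a1. It was 0 with DESeq2's size factors, without a filter, without robust estimation and with Y-linked levels as a covariate. Leaving out each mouse gave between 0 and 2 of the 36, beside between 629 and 973 of all genes. The 2 were Gria3 and Neto2 without Ant-134 1, and Grik3 and Grm8, both lower, without Scr 2, and Neto1 was called without Ant-134 5. With the replicate number as a block, 3 of 36 were called, Shisa6 at 0.16, Grin2a at 0.10 and Neto1 at 0.14, against 808 of 19782 genes tested. Counts this small cannot be read as a difference from all genes. Deviations of same-numbered mice had correlations between -0.15 and 0.05, and those of differently numbered mice between -0.28 and 0.29. With so few same-numbered pairs, these values cannot decide whether the numbers pair the mice. The paper calls the Scr mice littermates, and the labels give no pairs. The median of the 36 lay between 0.01 and 0.06 in all settings. Over all genes, 827 were called, 1775 without a filter on low counts and 1561 with limma on all genes above 0, where more genes of low counts were tested, and between 629 and 973 when each mouse was left out. Depth limited Grm8 most, with at least 156 reads in each library.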
